A study of Mus musculus with 12 samples.

Results

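The 8 genes of early cartilage were followed through forelimb buds of mouse embryos deficient in Tbx3 or in Hand2: the transcription factors Sox9, Sox5 and Sox6, the matrix genes Acan, Matn1, Matn4 and Hapln1, and the joint ligand Gdf5. Members were taken by gene symbol from a list drawn up with earlier results of these data known, and all 8 were found among the 53465 genes of the count tables. Bulk RNA-seq gave 12 libraries in 4 groups of 3, and each library holds the RNA of both forelimb buds of 1 embryo of the Swiss albino strain. The Tbx3 series compared wild-type embryos with embryos that carried the ΔVenus allele on both Tbx3 copies (Tbx3ΔVenus/ΔVenus), at E9.75-10.0 (28-31 somites). That allele puts a Venus reporter with a transcription stop at the start codon and acts in the whole embryo. The Hand2 series compared Prrx1-Cre;Hand2+/+ embryos, the Hand2 controls, with Prrx1-Cre;Hand2Δ/Δc embryos at E10-10.25 (31-33 somites). The plots name the groups Tbx3_WT, Tbx3_del, Hand2_WT and Hand2_del. Prrx1-Cre is a Cre recombinase driven in the limb mesenchyme, and all 6 embryos of the Hand2 series carried it, the controls included.

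SOX9 starts cartilage: limb mesenchyme cells that form condensations express it, and without it no cartilage is made. SOX5 and SOX6 are closely related partners of SOX9 that join it later at cartilage gene enhancers. Matrix genes follow, among them Acan (aggrecan, the main proteoglycan of cartilage), Hapln1 (link protein, which ties aggrecan to hyaluronan) and the matrilins Matn1 and Matn4. GDF5 is a BMP-family ligand of the digit rays and of future joints. TBX3 and HAND2 are transcription factors of the early limb bud, and HAND2 is needed for its posterior part, where it switches on Shh.

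Libraries of the Tbx3 series totalled 23.3-31.8 M counts (M = 1000000), those of the Hand2 series 60.2-68.6 M. As a check of the labels, Hand2 averaged 122 counts per 1000000 counts (CPM) in the Hand2 controls and 0.926 CPM in the Hand2-deficient buds. Deficient replicates 1 to 3 had 0.187, 2.21 and 0.384 CPM, so replicate 2 kept the most. Tbx3 averaged 78.2 CPM in the Tbx3 wild types and 77.7 CPM in the libraries labelled Tbx3-deficient (log2 fold change -0.0089, SE 0.0515). The count thus did not fall, although the allele is described with a transcription stop at the start codon. Why it did not fall was not tested. The gene's count gives no support to that label, and all results of the Tbx3 comparison rest on the label as given. Hand2-deficient replicate 1 stands apart, with 5.37% of its counts on a ribosomal-RNA-like gene. Read from Xist and the Y-linked genes, the Tbx3 wild types were 3 females and the Tbx3-deficient embryos 1 female (replicate 3) and 2 males. The Hand2 controls were 2 females (replicates 1 and 2) and 1 male, and the Hand2-deficient embryos 1 female (replicate 2) and 2 males. Nothing in the labels ties embryos to litters. Markers of limb bud mesenchyme summed to 1521-2239 CPM in every library. In bulk tissue, fewer cells of a type and less RNA per cell cannot be told apart.

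Levels of the 8 genes differed widely. Hapln1 and Sox9 were the most abundant on the scale of CPM per kilobase of exon, which allows levels of different genes to be compared. Mean levels of Hapln1 were 17.3 and 17.4 CPM per kb in the Tbx3 wild types and Tbx3-deficient buds, and 13.2 and 13.8 in the Hand2 controls and Hand2-deficient buds. Those of Sox9 were 13.1, 14.2, 16.1 and 17.0 CPM per kb in the same order of groups. Hapln1 stood above Sox9 in both Tbx3 groups without overlap of the libraries, while in the Hand2 series the libraries of both genes overlapped. Sox6 followed at 1.47, 2.21, 1.5 and 1.88 CPM per kb and Sox5 at 1.12, 1.12, 1.67 and 2.54. Sox6 lay above Sox5 without overlap in both Tbx3 groups, the libraries overlapped in the Hand2 controls, and Sox5 lay above Sox6 without overlap in the Hand2-deficient buds. Gdf5 came next, at 0.184, 0.161, 0.545 and 1.09 CPM per kb. The length used is that of all annotated exons joined, and which transcripts are made was not measured. It is longest for Sox6 (14832 bases) and Sox5 (14376 bases).

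Acan, Matn4 and Matn1, genes of the cartilage matrix, had the lowest levels per kilobase in the group means. Acan had 3-10 counts per library of the Tbx3 series, and 15-39 per library of the Hand2 series. Matn4 had 0-10 counts and Matn1 0 counts in 10 libraries and 1 count in each of the others, Hand2-deficient replicates 2 and 3. A count of 0 allows up to 3 counts, which is 0.0944-0.129 CPM at the Tbx3 depths and 0.0438-0.0498 CPM at the Hand2 depths, for counting error only. Matn1 stayed under this limit in every library. Acan reached 0.218-0.576 CPM in the Hand2 series, above the limit in all 6 libraries, and 0.0947-0.384 CPM in the Tbx3 series, at or just above it in the deficient buds.

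**Figure D1:**
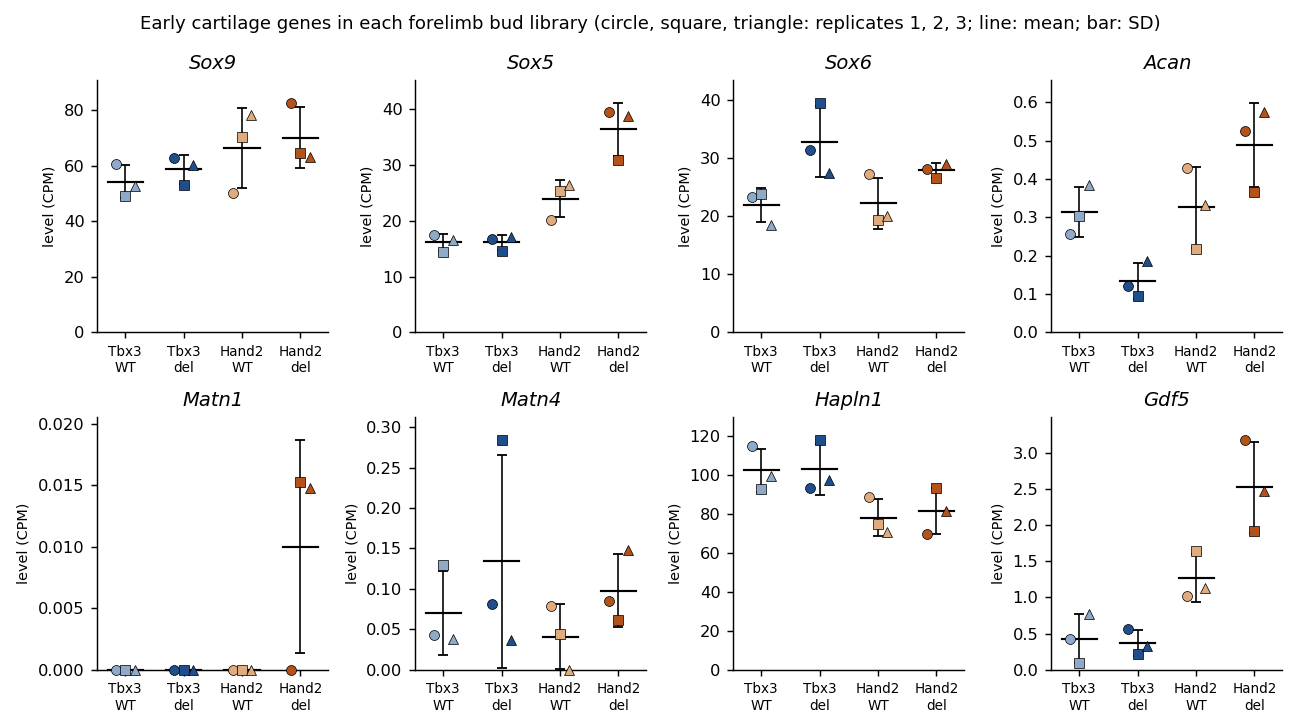
Each panel shows 1 gene, with CPM (linear axis from 0) against the 4 groups; points are libraries, lines are means of 3 and bars the SD. Sox5 and Gdf5 are higher in the 3 Hand2-deficient buds than in any Hand2 control, Sox6 is higher in the 3 Tbx3-deficient buds than in any Tbx3 wild type, and Matn1 sits at 0 in 10 of 12 libraries.

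**Figure D2:**
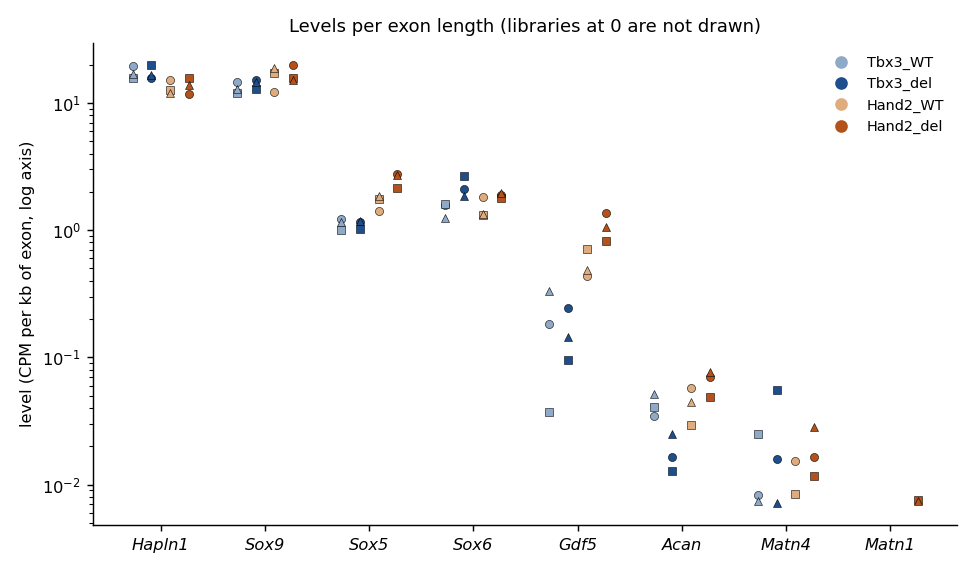
Levels of the 8 genes in CPM per kilobase of exon on a log axis, 1 point per library, coloured by group, each gene in the order of its highest group mean. Hapln1 and Sox9 lie at the top, Sox6 and Sox5 at 1.01-2.75, and Acan, Matn4 and Matn1 at the bottom; libraries with 0 counts are not drawn on the log axis.

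Without Hand2, Sox5 was the only member to pass the test, and its level rose 1.52-fold. Sox5, the gene ENSMUSG00000041540 on the minus strand of chr6:143828425-144781977 (GRCm38), measured 20.2, 25.3 and 26.4 CPM in Hand2 control replicates 1 to 3 and 39.5, 31.0 and 38.9 CPM in the Hand2-deficient replicates. The lowest deficient bud thus lay above the highest control. The log2 fold change was 0.60 (SE 0.129, 95% interval 0.30 to 0.91, adjusted p = 0.0372 by edgeR's quasi-likelihood test). By sex, the male control had 26.4 CPM and the deficient males 39.5 and 38.9, the female controls 20.2 and 25.3 CPM and the deficient female 31.0. With 1 or 2 embryos of a sex in a group, these values do not test the part of sex. Relative to Sox9, each per kilobase, Sox5 stood at 0.097-0.116 in the Hand2 controls and 0.137-0.177 in the deficient buds. Sox5os1, a gene on the other strand, shares 9.25% of the exon bases of Sox5. It averaged 0.333 counts in the Hand2 controls and 0.797 in the deficient buds.

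The call for Sox5 was close to the threshold. It was lost, at log2 fold changes of 0.49, 0.68, 0.54 and 0.55, without Hand2 control replicate 1 (adjusted p = 0.0870), control replicate 3 (0.0895), deficient replicate 1 (0.103) or deficient replicate 3 (0.101). It was also lost with sex in the model (log2 fold change 0.51, adjusted p = 0.0517), and over the 16 alternatives the adjusted p ran from 8.30e-05 to 0.115 with 10 calls. Of all 17488 genes tested, 10.5% were called in this comparison, 4.68% as higher, against 1 of the 6 members tested. Matn1 and Matn4 did not pass the filter on low counts.

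Gdf5 (ENSMUSG00000038259, minus strand of chr2:155941023-155945367) showed the largest fold change of the 6 members tested but missed the threshold. Its level was 1.02, 1.64 and 1.13 CPM in the Hand2 controls and 3.17, 1.92 and 2.47 CPM in the deficient buds, and the groups did not overlap. The log2 fold change was 0.99 (SE 0.256, 95% interval 0.39 to 1.60, adjusted p = 0.0530). By sex, the male control had 1.13 CPM and the deficient males 3.17 and 2.47, the female controls 1.02 and 1.64 CPM and the deficient female 1.92. The gene passed with DESeq2 (adjusted p = 0.00718), with no filter on low counts (0.0443), with a filter of 1 CPM in 3 libraries (0.0496) and without control replicate 2 (0.0366). Gdf5 shares 40.3% of its exon bases with Gm15557, a gene on the other strand. Since the strand of the libraries is not given in the sources used here, reads in the shared bases cannot be assigned to either gene with certainty.

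Sox5 and Gdf5 were thus the members whose deficient libraries all lay above the controls, 2 of 6 tested, where 18.7% of all genes did so in that direction. Sox6 (ENSMUSG00000051910, minus strand of chr7:115470872-116038796) measured 27.2, 19.4 and 19.98 CPM in the Hand2 controls and 28.0, 26.5 and 29.0 CPM in the deficient buds. Control replicate 1 lay within the deficient range, and the log2 fold change of 0.33 did not pass (SE 0.131, 95% interval 0.02 to 0.64, adjusted p = 0.137). Without that library it was 0.50 with an adjusted p of 0.0255. Acan averaged 0.326 ± 0.105 CPM (SD, n = 3) in the controls and 0.489 ± 0.11 CPM in the deficient buds, with overlap, and its log2 fold change was 0.58 (SE 0.326, adjusted p = 0.256).

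Sox9 and Hapln1, the most abundant members, showed overlapping groups. Sox9 (ENSMUSG00000000567, plus strand of chr11:112782224-112787760) measured 50.3, 70.5 and 78.3 CPM in the Hand2 controls and 82.8, 64.7 and 63.1 CPM in the deficient buds. The spread within each group exceeded the difference of the means, and the log2 fold change was 0.08 (SE 0.173, 95% interval -0.33 to 0.49, adjusted p = 0.778). Hapln1 (ENSMUSG00000021613, plus strand of chr13:89539796-89611652) measured 88.9, 74.7 and 70.9 CPM in the controls and 69.9, 93.3 and 81.3 CPM in the deficient buds. Its log2 fold change was 0.06 (SE 0.120, 95% interval -0.22 to 0.34, adjusted p = 0.755). These intervals leave room for changes of either sign. The 6 members tested had a median log2 fold change of 0.46 beside 0.01 over all genes tested, with Sox9 and Hapln1 near 0.

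**Figure D3:**
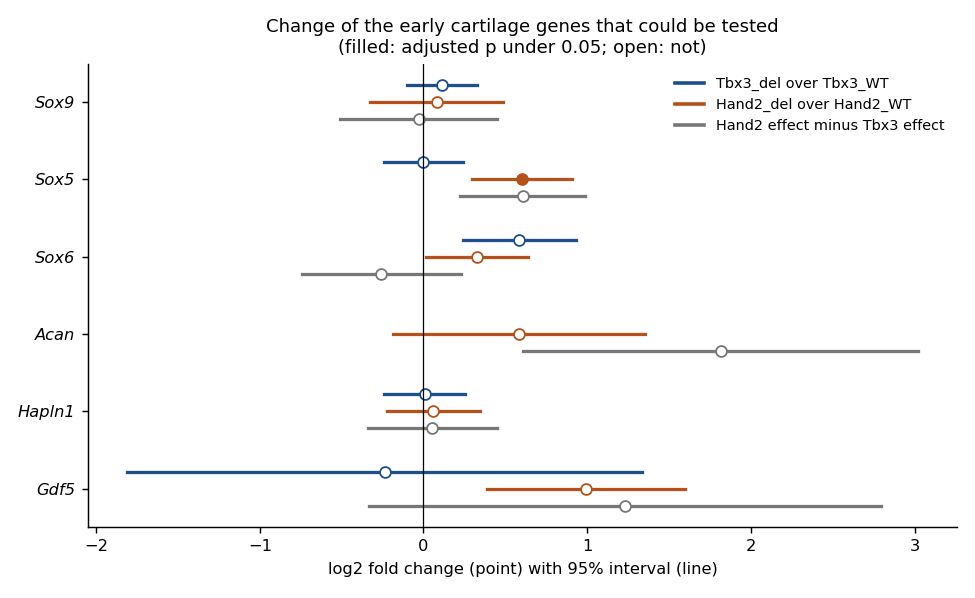
Log2 fold change of deficient over wild type for each member tested in the Tbx3 and Hand2 comparisons, with the 95% interval, and for the Hand2 effect minus the Tbx3 effect in grey; filled points are genes past an adjusted p of 0.05. Only Sox5 in the Hand2 comparison is filled, at 0.60, while Sox9 and Hapln1 lie near 0 in both comparisons.

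In the Tbx3 comparison 5 of the 8 members were tested and 0 were called, beside 1.01% of all 15130 genes (1 member, Sox6, had an unadjusted p under 0.05, as did 2159 of all genes). Sox6 showed the widest separation, with 23.3, 23.8 and 18.5 CPM in the Tbx3 wild types and 31.3, 39.5 and 27.5 CPM in the Tbx3-deficient buds. It was the 1 member of 5 whose 3 deficient libraries all lay above the wild types, as was the case for 10.7% of all genes tested. The log2 fold change was 0.59 (SE 0.148, 95% interval 0.24 to 0.93, adjusted p = 0.131), and it passed with DESeq2 (0.00628) and with no filter on low counts (0.0143). The wild types were all female and the 2 highest libraries, 31.3 and 39.5 CPM, were males. The deficient female, at 27.5 CPM, was the lowest of its group but lay above all 3 wild types. With sex in the model the fit sets this 1 female against the 3 wild types, and the log2 fold change was 0.33. Resting on 1 library, that fit cannot tell sex and the loss of Tbx3 apart.

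Sox5, its close relative, had nearly equal means in the Tbx3 groups. It measured 17.5, 14.5 and 16.6 CPM in the wild types and 16.8, 14.6 and 17.1 CPM in the deficient buds, with a log2 fold change of -0.00 (SE 0.105, 95% interval -0.24 to 0.24, adjusted p = 0.997). Sox9 measured 60.9, 49.3 and 52.9 CPM in the wild types and 63.0, 53.1 and 60.2 CPM in the deficient buds (log2 fold change 0.11, SE 0.0926, 95% interval -0.10 to 0.33, adjusted p = 0.638). Both genes overlapped between the groups. Hapln1 averaged 102 ± 11.2 CPM in the wild types and 103 ± 13.2 CPM in the deficient buds (SD, n = 3), with a log2 fold change of 0.01 (95% interval -0.24 to 0.25, adjusted p = 0.982). Gdf5 had only 1.98-19.8 counts per library here, and its 95% interval, -1.81 to 1.34, spans more than any other member's.

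Acan was not tested in the Tbx3 series because of its low counts. It had 6, 7 and 10 counts in the wild types and 3, 3 and 5 in the deficient buds. The deficient values are at or just above the limit of 3 counts. With no filter the log2 fold change was -1.21 (SE 0.623, adjusted p = 0.602), which did not pass. Matn4 (ENSMUSG00000016995) had 1, 3 and 1 counts against 2, 9 and 1, and Matn1 (ENSMUSG00000040533) had 0 counts in all 6 libraries. A difference in either matrilin was not detectable at this depth.

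Promoter sequence is given for Sox5, the member called without Hand2, and for its relative Sox6, to show what lies at their annotated starts. The 300-base windows run from 250 bases before to 50 bases after a start site in RefSeq (GRCm38.p6), which held 12 such windows for 6 of the 8 genes. Motifs of 4 kinds were searched on either strand: CATCTG, the E-box form known for HAND2 dimers, CANNTG, the general E-box that includes it, AGGTGTGA, the T-box half-site, and AACAAT, a SOX site. Capitals mark CATCTG or its reverse complement. Sox6 has 6 of the windows and Sox5 has 1, and the Sox6 window shown is that of the outermost start, which is also the one with the most CATCTG matches. The Sox5 window is chr6:143947057-143947356 on the minus strand, and the Sox6 window shown is chr7:116038695-116038994 on the minus strand.
Sox5: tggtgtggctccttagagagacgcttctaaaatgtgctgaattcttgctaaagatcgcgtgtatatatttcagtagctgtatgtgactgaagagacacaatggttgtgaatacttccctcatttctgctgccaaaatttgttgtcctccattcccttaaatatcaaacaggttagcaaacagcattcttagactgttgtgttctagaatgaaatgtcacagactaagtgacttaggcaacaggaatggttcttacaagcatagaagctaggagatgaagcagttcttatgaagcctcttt
Sox6: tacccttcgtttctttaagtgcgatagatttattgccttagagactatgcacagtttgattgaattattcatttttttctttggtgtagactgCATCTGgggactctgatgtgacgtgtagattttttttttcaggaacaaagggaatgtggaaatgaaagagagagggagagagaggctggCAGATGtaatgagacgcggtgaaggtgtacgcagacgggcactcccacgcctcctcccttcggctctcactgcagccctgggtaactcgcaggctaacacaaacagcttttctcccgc

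The Sox5 window held none of these motifs, and its start site lies 834.871 kb inside the outer 5′ end of the annotated gene, so other starts of Sox5 are outside it. The Sox6 window shown held 2 matches to CATCTG, beginning 157 and 68 bases before the start site. Of the other 5 Sox6 windows 1 held a single match to CATCTG and 4 held none, and 1 of those 4 held 2 matches to AACAAT. Of 32851 promoter windows of this length, 17.2% held CATCTG, 72.3% CANNTG, 1.28% AGGTGTGA and 10.7% AACAAT. A match is a string of letters and not a measured binding site, and no match says nothing of sites elsewhere.

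The effects of both losses, each taken against its own wild types, were compared in a fit of all 12 libraries. There 1.68% of 17360 genes differed and 0 of the 6 members tested did. Stage, depth, Prrx1-Cre, the kind of allele and the spread of the sexes differ between the series along with the gene lost. The contrast cannot tell these apart. For Sox5 the Hand2 effect exceeded the Tbx3 effect by 0.61 on the log2 scale (SE 0.174, adjusted p = 0.115), and DESeq2 alone called it (0.0289). For Acan the difference was 1.82 (SE 0.550, adjusted p = 0.133), resting on under 40 counts in every library. For Gdf5 it was 1.23 (adjusted p = 0.400), for Sox6 -0.26 (0.585), for Hapln1 0.05 (0.910) and for Sox9 -0.03 (0.961). An increase of Sox5 particular to the loss of Hand2 was therefore not shown by this test.

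The wild types of both series differ at least in stage, Prrx1-Cre, depth and the number of males (0 of 3 and 1 of 3) together, which cannot be told apart. Of the members tested, 0 of 6 were called between them, beside 0.753% of 16339 genes. Sox5 averaged 16.2 ± 1.53 CPM in the earlier Tbx3 wild types and 24.0 ± 3.30 CPM in the later Hand2 controls (SD, n = 3), without overlap (SE 0.120, log2 fold change 0.55, adjusted p = 0.0908). Gdf5 had 0.427, 0.0866 and 0.768 CPM in the earlier and 1.02, 1.64 and 1.13 CPM in the later wild types, again without overlap (1.51, SE 0.536, adjusted p = 0.206). Both lay higher in all later libraries, as did 15.1% of all genes. Hapln1 lay lower in all later libraries, at 78.1 ± 9.50 CPM against 102 ± 11.2 CPM (SE 0.103, log2 fold change -0.41, adjusted p = 0.115), as did 10.0% of all genes. DESeq2 called Sox5 and Hapln1, and Sox5 was also called with no filter and in the fit of all 12 libraries. Sox9 (0.27, adjusted p = 0.418), Sox6 (-0.00, 1.00) and Acan (0.02, 0.984) overlapped between these groups.

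The 7 lists of 71 further cartilage genes place the members in their pathway: collagens, other matrix, relatives of the members, joint interzone, regulators, condensation adhesion and BMP signalling. Without Hand2, 60 of these genes were tested, 6 rose and 2 fell, which is 13.3% beside 10.5% of all genes, and the median log2 fold change was 0.13 beside 0.01. Of 5 other matrix genes tested 1 rose, Fmod (fibromodulin, a collagen-binding proteoglycan), from 1.98 to 3.88 CPM (SE 0.185, log2 fold change 0.97, adjusted p = 0.0285). Of 8 relatives 1 rose, Sox8, a paralogue of Sox9, from 7.78 to 12.5 CPM (0.69, SE 0.160, adjusted p = 0.0432). Of 10 regulators 1 rose, Pth1r, the receptor for PTHrP, from 55.5 to 73.7 CPM (0.41, SE 0.103, adjusted p = 0.0493). Of 8 adhesion genes 1 rose, Ncam1, a cell adhesion molecule of condensations and of neurons, from 18.5 to 29.4 CPM (0.67, SE 0.131, adjusted p = 0.0307).

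Of 10 joint genes tested without Hand2, 1 rose, 1 fell and 8 did not pass, beside 10.5% of all genes called. Gdf6, a paralogue of Gdf5, rose from 8.35, 7.69 and 7.60 CPM to 12.7, 11.3 and 11.1 CPM (SE 0.0862, log2 fold change 0.57, adjusted p = 0.0162). Osr1, a zinc-finger transcription factor of joints and connective tissue, fell from 11.3, 16.8 and 14.8 CPM to 6.32, 8.04 and 7.17 CPM (-0.99, SE 0.162, adjusted p = 0.0197). Among 12 BMP genes Id2, an inhibitor of helix-loop-helix factors induced by BMP, rose from 92.7 to 128 CPM (0.47, SE 0.0473, adjusted p = 0.00405), and the receptor Acvr2b fell from 96.1 to 83.3 CPM (-0.21, SE 0.0383, adjusted p = 0.0266). None of the 7 collagens passed. Col2a1, the main collagen of cartilage and a SOX9 target, measured 156, 197 and 156 CPM in the controls and 263, 204 and 247 CPM in the deficient buds (0.49, SE 0.124, adjusted p = 0.0502), and was called in 10 of 16 alternatives.

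Of these 8 calls, Id2 alone held in each of the 6 fits that left out a library. Gdf6 was lost without control replicate 3 (adjusted p = 0.0767). Osr1 was lost without control replicate 3 or deficient replicates 1 or 3 (0.0598-0.0789). Ncam1 was lost without replicate 1 or 3 of either group (0.0804-0.113). Acvr2b was lost without control replicate 1 or 3 or deficient replicate 2 or 3 (0.0595-0.106). Fmod was lost without control replicate 3 or any deficient replicate (0.0504-0.0954). Pth1r was lost without any library but control replicate 2 (0.0557-0.143), and Sox8 without any of the 6 (0.0644-0.113). With sex in the model Sox8 (0.0773), Pth1r (0.0953), Ncam1 (0.0707) and Acvr2b (0.0662) were lost too, and in the fit of all 12 libraries Sox8 (0.167) and Gdf6 (0.0594). Fmod was lost after thinning to the Tbx3 depth (0.0631) and Pth1r with limma-voom (0.0507).

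In the Tbx3 comparison 54 of the 71 genes were tested, 1 rose and 0 fell, 1.85% beside 1.01% of all genes, with a median log2 fold change of 0.06 beside -0.00. The gene that rose was again Ncam1, at 14.4, 11.2 and 14.0 CPM in the wild types and 25.9, 30.5 and 21.3 CPM in the deficient buds (SE 0.150, log2 fold change 0.97, adjusted p = 0.0364). It was lost without any library but deficient replicate 3 (0.0596-0.118) and with limma-voom (0.0525). The wild types were all female, so with sex in the model the fit rests on the 1 deficient female. The log2 fold change of Ncam1 was then 0.69. Col9a1, a collagen of the cartilage fibril surface, measured 23.2, 19.9 and 26.8 CPM in the wild types and 42.0, 44.1 and 31.7 CPM in the deficient buds and did not pass (0.75, SE 0.146, adjusted p = 0.0690). Col2a1 averaged 164 and 176 CPM (0.10, adjusted p = 0.518). Matn3, a relative of Matn1, averaged 5.37 and 4.97 CPM (-0.11, adjusted p = 0.776), and Vcan (versican, the large proteoglycan of condensations) 254 and 244 CPM (-0.06, adjusted p = 0.812). Gdf6 measured 8.45, 4.55 and 5.53 CPM in the wild types and 8.75, 10.95 and 10.8 CPM in the deficient buds, without overlap (0.72, SE 0.227, adjusted p = 0.211). The medians of the 7 lists lay between -0.09 and 0.30, those in the Hand2 comparison between -0.03 and 0.33. None of the 59 genes tested differed between both effects. Between the wild types 1 of 56 passed, Col11a1, at 36.4 against 48.8 CPM (0.40, adjusted p = 0.0400), and it was lost without any 1 of the 6 libraries (0.0517-0.167) and with sex in the model (0.165).

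**Figure D4:**
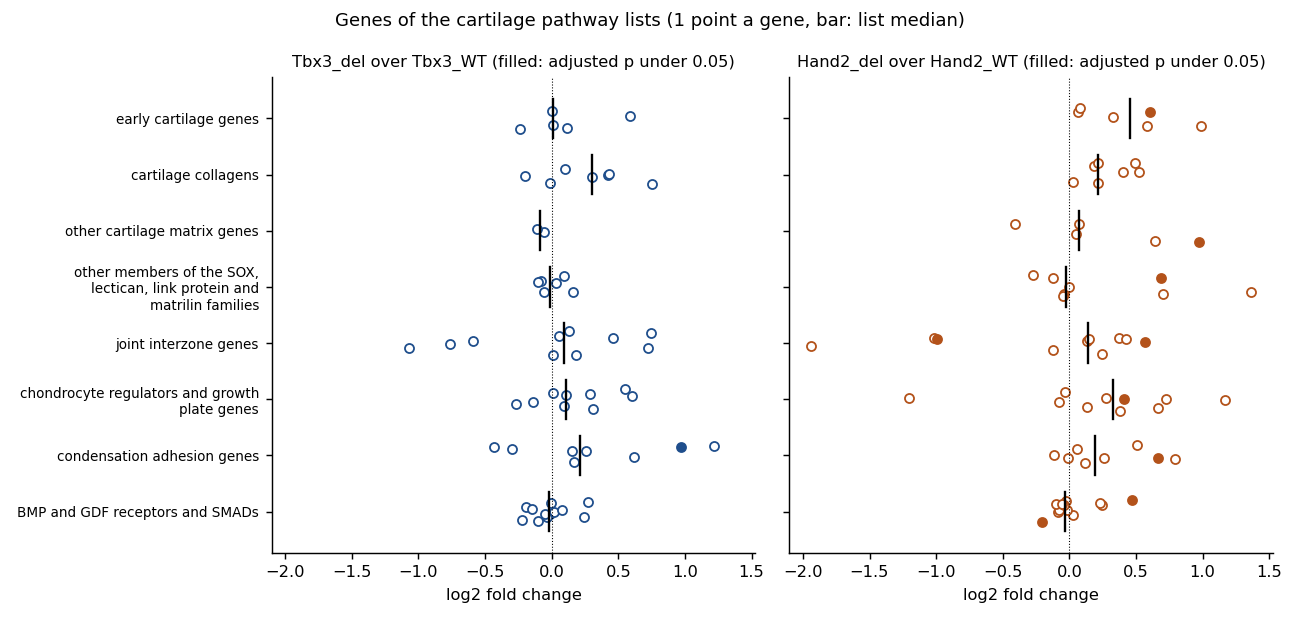
Log2 fold changes of the tested members (top row) and of the tested genes in each of the 7 cartilage lists, 1 point per gene, for the Tbx3 and the Hand2 comparison, with the list median as a bar; filled points are genes past an adjusted p of 0.05. Medians of the 7 lists lie between -0.09 and 0.33, and the called genes of the 7 lists are Ncam1 in the Tbx3 comparison and 6 higher and 2 lower genes in the Hand2 comparison.

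Markers of other cells of the bud and its surroundings were measured beside these values. In the Hand2 comparison 1 of 4 body wall markers tested rose (Gata4, 0.570 to 4.98 CPM), as did 1 of 9 somite markers (Tbx18, 40.3 to 60.4 CPM), 1 of 6 endothelial markers (Cdh5) and 2 of 6 macrophage markers (C1qb and Ptprc), beside 4.68% of all genes called as higher. These shares lie above it, but each rests on 1 or 2 genes of a list with 4 to 9 markers tested. Summed body wall markers were 5.32-29.3 CPM in the controls and 22.5-51.3 CPM in the deficient buds. Summed macrophage markers were 3.76-5.91 and 7.22-13.7 CPM, and summed somite markers 95.5-146 and 133-179 CPM. The sums were 50.8-65.8 and 69.3-73.6 CPM for neural crest, 133-157 and 171-175 CPM for muscle progenitors and 254-256 and 270-298 CPM for endothelium, each without overlap. Of single genes tested, 18.7% lay higher in all deficient libraries. Of 9 limb mesenchyme markers, Meis1, Prrx2 and Twist1 rose and Fgf10 fell. Markers of neural crest, neurons, red cells, heart muscle, muscle progenitors and epithelium gave 0 calls in either comparison. Meis1 alone of these 9 calls held in every fit that left out a library. Twist1, Tbx18, Cdh5 and Ptprc were each lost without any 1 of the 6 (adjusted p = 0.0547-0.155), Gata4 without any but control replicate 1 (0.0510-0.137), and Fgf10 and C1qb without replicate 1 or 3 of either group (0.0527-0.132). Prrx2 was lost without control replicate 1 or 3 or deficient replicate 3 (0.0617-0.0767). With sex in the model Gata4, Tbx18, Cdh5, C1qb, Ptprc, Twist1 and Fgf10 were lost (0.0546-0.109).

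In the Tbx3 comparison the summed neural crest markers were 59.3-66.4 CPM in the wild types and 80.2-101 CPM in the deficient buds, and the body wall markers 6.80-44.0 and 43.8-86.0 CPM. Macrophage markers summed to 1.47-4.23 and 5.81-7.45 CPM, and limb mesenchyme markers to 1742-1785 and 1521-1669 CPM. Neural tube and neuron markers summed to 42.0-56.8 and 24.5-41.7 CPM, the lowest wild type just above the highest deficient bud. Most of each sum was 1 gene, Dcx. Its levels overlapped, at 33.1, 35.4 and 44.0 CPM in the wild types and 34.1, 17.7 and 31.4 CPM in the deficient buds. Only 2 of the 8 markers of this list were tested. Sums of the body wall, somite, red cell, heart muscle, muscle progenitor, epithelial and endothelial lists overlapped between the groups. Of single genes tested, 10.7% lay higher in all deficient libraries. Only 1 marker of all these lists passed there, Tbx5 of the limb mesenchyme list, which fell from 90.2 to 62.4 CPM. The call was lost without any library but deficient replicate 1 (adjusted p = 0.0809-0.142). With sex in the model, which leaves 1 deficient female against the wild types, the log2 fold change of Tbx5 was -0.71. Neurod1 was at 0 in every wild type of both series, Olig2 in every Hand2-deficient bud and Nkx2-5 in all 6 libraries of the Hand2 series. The part of these cells in the values of Sox5, Gdf5 and Sox6 was not tested.

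Within groups, the members did not vary as a block. Hand2 control replicate 1 had the lowest Sox9 and Sox5 of its group and the highest Sox6 and Hapln1. Hand2-deficient replicate 1, the library rich in ribosomal RNA, had the highest Sox9, Sox5 and Gdf5 of its group and the lowest Hapln1. Without it the deficient libraries had 31.0 and 38.9 CPM of Sox5, above all wild types, and 1.92 and 2.47 CPM of Gdf5. The Sox5 call was then lost (log2 fold change 0.54, adjusted p = 0.103 by edgeR's quasi-likelihood test).

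Genes that followed each abundant member most closely over the 12 libraries were found by the root mean square distance between log2 CPM centred on its mean, among 12306 genes. For Sox5, whose own spread was 0.503, they were Glis3 (0.144), Htra1 (0.145) and Zfhx4 (0.161). Glis3 averaged 5.93 CPM in the Hand2 controls and 9.84 CPM in the deficient buds, and Zfhx4 212 and 296 CPM. As both were picked for following Sox5 over these same libraries, their rise was set by the choice and is no separate result. For Sox6, with a spread of 0.301, they were Gnao1 (0.116), Adamts1 (0.140) and Ncald (0.144). For Sox9, with a spread of 0.230, they were Brdt (0.116), Dpysl2 (0.127) and Lpar1 (0.129). For Hapln1, with a spread of 0.235, they were Metrn (0.0708), Car8 (0.0870) and Dusp3 (0.0889). No member was among the closest genes listed for another. Acan, Matn1 and Matn4 lay under the 1 CPM needed for a gene to be compared, so they could not appear. With so few places among 12306 genes, the absence of other members does not show whether members vary together.

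**Figure D5:**
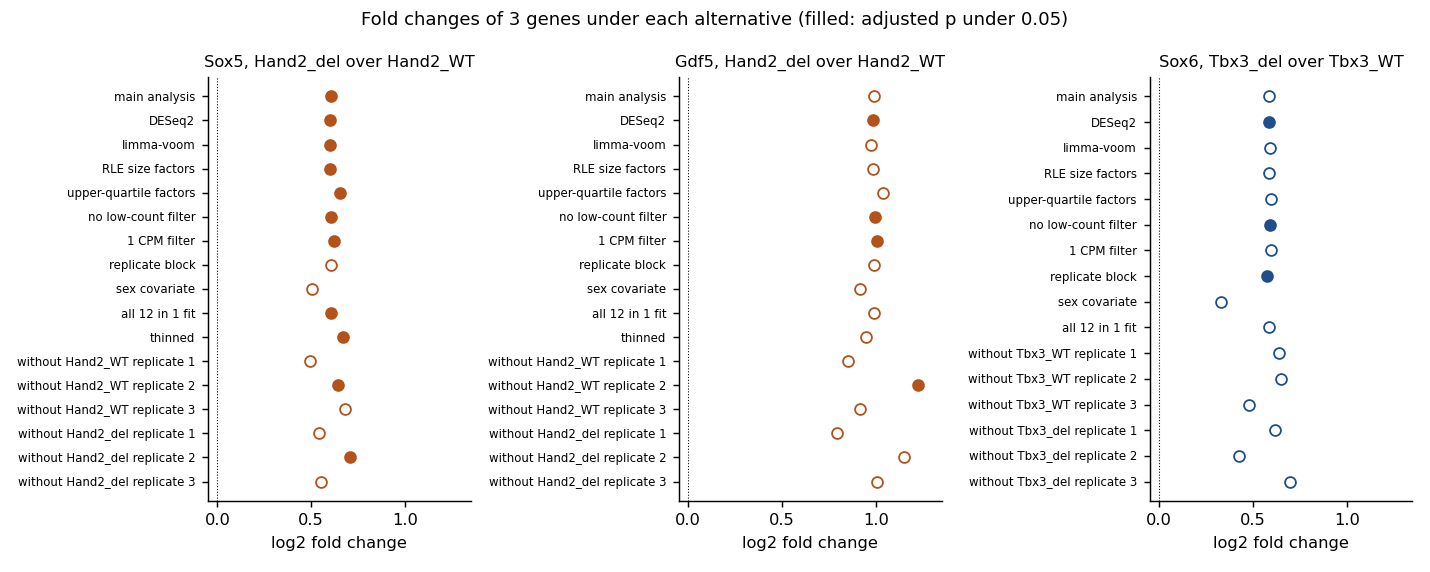
Log2 fold change of Sox5 and Gdf5 in the Hand2 comparison and of Sox6 in the Tbx3 comparison in the main analysis and under each processing alternative; filled points are past an adjusted p of 0.05. All values lie above 0, and Sox5 in the Hand2 comparison passes in 10 of 16 alternatives, Gdf5 in 4 of 16, and Sox6 in the Tbx3 comparison in 3 of 15.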

How the data were processed

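RNA-seq was made from 1 pair of forelimb buds per library, per the labels' protocols with a SMARTer kit and 85 bp single-end reads. Per the submitters' processing notes, reads passed FastQC (version 0.11.4), STAR (2.5.2) and RSEM (1.3.0), with mm10 as genome. Strand is not given in the sources used here. What the authors deposited are RSEM expected counts per Ensembl gene, not normalised, which were rounded before testing. Symbols and exons came from GENCODE M21 (GRCm38).

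Each deficient group was compared with its own wild types in 6 libraries with edgeR 4.0.16 in R 4.3.3: filterByExpr (minimum count 10, total 15), TMM scaling, the quasi-likelihood test, and p-values adjusted by Benjamini-Hochberg across every tested gene, with calls under 0.05. SE is the log2 fold change over the square root of F. CPM are TMM-scaled within a series. The difference of effects used a 4-group fit. P-values measure the spread between embryos that may share litters. The steps were tested on simulated data. Precision is that between replicates, since totals of 23.3-68.6 M counts make counting error small for abundant genes, and without molecular identifiers reads may repeat a molecule.

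The 8 members and 18 further gene lists were chosen with earlier results of these data known. Genes named beyond the members were drawn from up to 4 called genes per list by adjusted p, or else its gene of smallest adjusted p. Genes overlapping a member, and for members above 5 CPM the 3 nearest genes of at least 1 CPM, were added. Not all of these are given, and Col2a1 is given in the Tbx3 comparison beside them. Alternatives were DESeq2, limma-voom, other scaling and filters, a replicate block, sex, a joint fit, thinning to the Tbx3 depth and leaving out each library.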

Additional observations from a re-analysis of the deposited data

Results flagged for a closer look

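No member differed between the Tbx3 and Hand2 effects. Outside the members, 3 genes named here did in the test of the difference itself (edgeR, 12 libraries, Hand2 effect minus Tbx3 effect). Stage, depth, Prrx1-Cre and the kind of allele differ between the series along with the gene lost and cannot be told apart from it. Hand2 gave -6.55 on the log2 scale, being deleted in 1 series only. Prrx2, a homeobox gene of limb mesenchyme, gave 0.71, with means of 152 and 134 CPM in the Tbx3 wild types and deficient buds and 140 and 202 CPM in the Hand2 wild types and deficient buds (adjusted p = 0.00990). Tbx18, a T-box gene of somite and proximal mesenchyme, gave 1.29, with means of 40.9, 25.1, 40.3 and 60.4 CPM in the same order (adjusted p = 0.0310). Prrx2 held without any 1 of the 12 libraries, and Tbx18 lost its call in 8 of these 12 fits (adjusted p = 0.0525-0.0835).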

How the results depend on the processing

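In the Tbx3 comparison 153 genes were called, against 551 with DESeq2, 99 with limma-voom, 504 with no filter on low counts, 22 with sex in the model, 422 in the fit of all 12 libraries and 23-220 without 1 library. In the Hand2 comparison 1836 were called, against 3475 with DESeq2, 526 with sex and 218-2223 without 1 library. For the difference of effects 292 were called, against 859 with DESeq2 and 123-336 without 1 library. Between the wild types 123 were called, against 883 with DESeq2, 326 with no filter, 37 with sex, 360 in the fit of all 12 libraries and 36-165 without 1 library. Members called in the Tbx3 comparison went from 0 to 1 (Sox6) with DESeq2 or no filter. In the Hand2 comparison they went from 1 to 2 (Gdf5 beside Sox5) with DESeq2, no filter or the filter of 1 CPM, to 0 with sex and to 0-2 without 1 library. For the difference DESeq2 called 1 (Sox5), and between the wild types 2 with DESeq2, 1 with no filter and 1 in the fit of all 12 libraries.

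Signs turned only for values near 0 or at low counts. In the Tbx3 comparison Gdf5 was 0.052 with limma-voom and -0.70 to 0.51 without 1 library. Sox5 there was 0.0074 with upper-quartile factors, 0.0052 with no filter, 0.0076 with the filter of 1 CPM, 0.079 with sex and -0.075 to 0.068 without 1 library. Hapln1 was -0.071 with sex and -0.10 to 0.10 without 1 library, Vcan -0.12 to 0.011 and Tbx3 itself -0.034 to 0.031. In the Hand2 comparison Sox9 was -0.0023 with sex and -0.087 to 0.21 without 1 library, and Hapln1 -0.049 to 0.16. For the difference Sox9 was 0.0083 with upper-quartile factors, 0.028 with sex and -0.20 to 0.11 without 1 library, and Hapln1 -0.055 to 0.16. Between the wild types Acan was -0.077 with limma-voom and -0.10 to 0.25 without 1 library. Sox6 there was 0.0020 with upper-quartile factors, 0.023 with no filter, 0.0054 with 1 CPM, 0.068 with sex, 0.0050 in the fit of all 12 libraries, 0.018 after thinning and -0.17 to 0.092 without 1 library. The causes were not tested. Of 379 alternative values of member fold changes 316 kept direction and call.

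The labels do not say whether the replicate numbers pair the libraries, and with 3 libraries a group the counts did not settle it. Deviations of same-numbered libraries correlated at 0.18, 0.04 and -0.01 in the Tbx3 series and -0.24, 0.16 and 0.19 in the Hand2 series over 10830 genes, and not every library correlated best with its own number. A replicate block gave 87, 161, 69 and 31 called genes in the 4 comparisons. Of the 17 calls named outside the members in the Hand2 comparison the block ended 14 (adjusted p = 0.0803-0.142), all but Osr1, Id2 and Meis1. It also ended Ncam1 in the Tbx3 comparison (0.0809), Col11a1 between the wild types (0.0911) and Tbx18 for the difference (0.0831). With the block Sox6 was called in the Tbx3 comparison (1 member, adjusted p = 0.0434), Sox5 was not in the Hand2 comparison (0 members, 0.115) and Sox5 in the Tbx3 comparison was 0.0014.

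Depth limited Matn1 and Matn4, and Acan and Gdf5 in the Tbx3 series. With 3 embryos a group and sexes unevenly spread, the 95% intervals of Sox9 and Hapln1 hold changes of either sign.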
